A study of Homo sapiens with 28 samples.

Results

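The p53 pathway genes described here are MDM2, MDM4, CDKN1A, PPM1D, BBC3, TP53INP1 and SESN1, 7 genes picked by name and placed by their GENCODE coordinates on hg38. They are 7 of the 12628 protein-coding genes that had a peak on their own strand in at least 1 library. A peak belonged to a gene when its summit lay between 1000 bases upstream of the gene start and the gene end. By this rule the 7 genes held 203 of 496678 peaks, 168 on the sense strand and 35 on the antisense strand. Overlapping peaks of all libraries were merged into regions, which gave 23 sense regions, of which 19 were listed in at least 2 libraries.

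p53 is a transcription factor that is stabilized after DNA damage and switches on genes for cell cycle arrest, apoptosis and its own feedback control. MDM2 is the ubiquitin ligase that marks p53 for degradation, and its relative MDM4 binds p53 and blocks its transactivation domain. PPM1D is a phosphatase that reverses damage signalling. CDKN1A encodes the cyclin-dependent kinase inhibitor p21, BBC3 the pro-apoptotic BH3 protein PUMA, TP53INP1 a stress protein linked to apoptosis and autophagy, and SESN1 a sestrin that restrains mTORC1. N6-methyladenosine (m6A) is placed on nascent RNA by the METTL3–METTL14 complex, mostly in the sequence context DRACH (D is A, G or U; R is A or G; H is A, C or U), and is found most often near stop codons and in long exons.

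The study measured m6A on caRNA, RNA recovered with the chromatin fraction of the cells, by immunoprecipitation of rRNA-depleted RNA with an m6A antibody and sequencing (MeRIP-seq). There were 14 immunoprecipitated (IP) libraries. HepG2 and K562 cells without a hairpin (WT) gave 2 libraries each. Control and RBFOX2 KD cells gave 2 libraries per group in K562, and 3 per group in NB4. HepG2 is a hepatoma line with functional p53, while K562 (myelogenous leukaemia) and NB4 (acute promyelocytic leukaemia) are p53 defective. RBFOX2 is an RNA-binding protein that the study places at chromatin m6A, and its knockdown (KD) was by short hairpin RNA, with a non-targeting hairpin as the control. The sources used here do not say which hairpin the KD libraries carried. Each group is 1 line, and the study's methods call replicates biological while the labels do not say whether they were separate cultures, so p-values measure the spread between these libraries. Lines differ in tissue of origin as well as in p53, and these cannot be told apart here.

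Lists held 22700 to 44088 peaks, from 10.8 to 32.9 M effective reads, the read depth recovered from the peak statistics. HepG2 lists were the shortest (22700 and 27438 peaks), with median folds of 3.84 and 4.03, although their depth was the greatest, whereas the 12 leukaemia lists had median folds of 5.08 to 8.01. To compare lists of such different length, each peak was given its percentile by -log10 q within its own list (100 is the strongest), and a gene its strongest sense peak, with 0 where it had none. A library missing a peak can have a site too weak to be called, and neither RNA level nor methylated fraction was measured here. The series also holds 14 input libraries, which were not analysed here. Fewer cells with a transcript and less of it per cell cannot be told apart in such bulk samples. Of 8 HepG2 marker genes, 3 and 6 had a peak in the HepG2 libraries and 0 in the others; of 8 K562 markers, 7 to 8 had one in K562 libraries, 0 in HepG2 and 1 to 2 in NB4; and of 8 NB4 markers, 6 to 7 had one in NB4 libraries, with 1 in HepG2 and 1 to 3 in K562. ALB and AFP, which define hepatocyte-like cells, had no peak in any library. RBFOX2 itself had sense peaks in every K562 and NB4 library, at percentiles 58.7 and 64.2 in K562 Control, 60.6 and 57.6 in K562 RBFOX2 KD, 72.1, 20.04 and 20.8 in NB4 Control, and 29.4, 38.5 and 44.03 in NB4 RBFOX2 KD. These are peak ranks and do not check the knockdown.

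In MDM2, MDM4, PPM1D and BBC3 the strongest peak lay in 1 region in every library. The sequences below are from hg38, on the strand of the gene, around the strongest summit of each region, with every DRACH match in capitals. Sites in untranslated regions are shown as 30 bases around the DRACH nearest the summit, and the CDKN1A window ends with its exon.
MDM2 coding exon 11, chr12:68839456-68839556, plus strand: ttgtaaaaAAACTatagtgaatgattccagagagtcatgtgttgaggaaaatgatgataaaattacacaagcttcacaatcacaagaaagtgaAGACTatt
MDM2 3′ UTR, chr12:68842223-68842252, plus strand: tatatttataatGAACAaattcaagaaaaa
MDM4 coding exon 11, chr1:204549412-204549512, plus strand: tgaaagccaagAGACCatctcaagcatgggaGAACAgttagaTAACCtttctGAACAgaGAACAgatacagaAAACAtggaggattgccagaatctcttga
CDKN1A coding exon 2, chr6:36684463-36684546, plus strand: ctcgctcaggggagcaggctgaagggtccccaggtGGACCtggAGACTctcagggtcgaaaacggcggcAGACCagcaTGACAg
PPM1D coding exon 6, chr17:60663253-60663353, plus strand: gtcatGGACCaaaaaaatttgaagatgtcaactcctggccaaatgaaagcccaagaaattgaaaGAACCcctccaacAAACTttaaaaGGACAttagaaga
BBC3 3′ UTR, chr19:47221592-47221621, minus strand: tgacggagatgcGGACTcctgggtccctgg
SESN1 5′ UTR, chr6:109094088-109094117, minus strand: catgctgaaaggTAACTgaAGACCgcaaag

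A DRACH match lay within 50 bases of the strongest summit in 15 of the 19 recurrent sense regions (78.9%), against 90.8% of 67518 regions of the whole series and 83.4% of windows 300 bases to either side of those. GGACT, the most favoured m6A pentamer, was in 3 of 19, against 18.2% of all regions. The motif bound by RBFOX2, TGCATG, was in 0 of the 19 windows and in 2.43% of all regions. AGATG, a motif the study relates to RBFOX2, was in 2 of the 19 (10.5%), against 15.8% of all regions. Motifs were searched on the RNA strand alone, and these letters say nothing about binding.

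**Figure D1:**
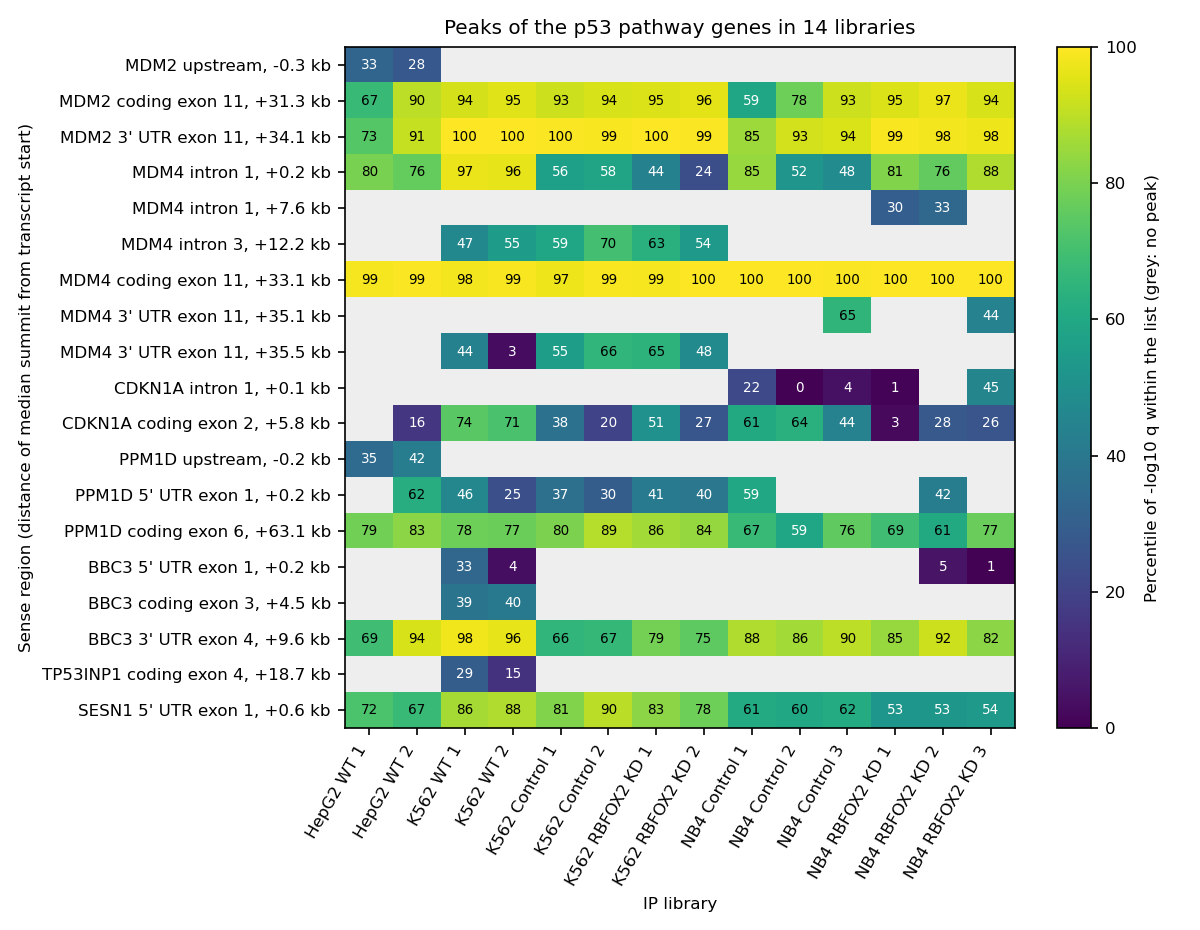
Percentile of -log10 q within its list (colour and number) of the 19 sense regions listed in at least 2 of the 14 IP libraries, with the place in the canonical transcript and the distance of the median summit from the transcript start in kb; grey marks no peak. The 7 regions that fill a whole row are in MDM2, MDM4, PPM1D, BBC3 and SESN1, and the upstream regions of MDM2 and PPM1D hold values in the 2 HepG2 columns alone.

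Of the 19 recurrent sense regions, 7 were listed in all 14 libraries, where 11.4% of all recurrent regions were. They were the coding and 3′ UTR sites of MDM2, an intron 1 site and the coding site of MDM4, the coding site of PPM1D, the 3′ UTR site of BBC3 and the 5′ UTR site of SESN1. In MDM2 (canonical transcript ENST00000258149.11, 11 exons) both were in the last exon, with median summits 342 bases before the stop codon and 2385 bases after it. The second lies within an annotated processed pseudogene (ENSG00000256664) on the same strand, so reads there could also derive from related copies. The last-exon coding sites of MDM4 (ENST00000367182.8) and PPM1D (ENST00000305921.8) were 218 and 249 bases before the stop codon, and that of CDKN1A (ENST00000244741.10, 3 exons), in exon 2, was 66 bases before it. In 5 of the 13 libraries with the CDKN1A site the summit lay just past the end of that exon. SESN1 (ENST00000436639.7) had its constant region at the 5′ end, where summits fell into 2 groups, 298 to 458 and 717 to 788 bases from the transcript start, and the strongest of them differed between libraries.

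MDM4 ranked above the other 6 genes in HepG2 and NB4, while MDM2 ranked above it in 5 of 6 K562 libraries. Its coding site in exon 11 (chr1:204549029-204550047) was at percentiles 98.7 and 99.3 in HepG2 WT and between 97.4 and 99.9 in the 12 leukaemia libraries, with a median of 99.6. In NB4 RBFOX2 KD 3 it was peak number 19 of the list, and in K562 Control 1, its lowest, number 960. The fold over local background was 5.66 and 7.18 in HepG2 and 9.09 to 23.3 in the leukaemia lines. Ranks of the groups overlapped and folds did not, but 27.1% of all genes had folds that were lower in HepG2 without overlap (5.17% higher).

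MDM4 also carried regions listed in K562 alone. A region in intron 3 (chr1:204528307-204529269) and a region in the 3′ UTR (chr1:204551598-204552099) were each listed in all 6 K562 libraries and in no other, as were 8.09% of recurrent regions. The intron 3 percentiles were 46.9 and 54.7 in K562 WT, 58.9 and 70.03 in Control, and 63.5 and 53.7 in KD. Those of the 3′ UTR region ran from 3.14 (K562 WT 2) to 65.9 (K562 Control 2). A separate region nearby in the same 3′ UTR (chr1:204551372-204551529) was listed in NB4 Control 3 and NB4 RBFOX2 KD 3, at percentiles 65.4 and 44.3. On the opposite strand, a peak under the coding site (chr1:204549312-204549584) was likewise listed in all 6 K562 libraries only, at 3.17 to 4.94 RPM (summit reads per M effective reads), against 26.1 to 50.6 on the sense strand of the same libraries. NB4 libraries, with sense pileups of 25.1 to 46.9 RPM there, had no such antisense peak. The median summits were at positions 204549456 (antisense) and 204549464 (sense), and the share of reads assigned to the wrong strand was not tested.

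The intron 1 site of MDM4, 189 bases from the start, varied most among the constant sites. No DRACH match lay in its window. It was at 80.03 and 76.3 in HepG2, 96.9 and 96.2 in K562 WT, 56.4 and 58.5 in K562 Control, and 43.8 and 24.1 in K562 RBFOX2 KD. NB4 Control libraries were at 84.5, 52.3 and 48.1 and NB4 RBFOX2 KD libraries at 81.1, 75.9 and 87.9. K562 WT stood above K562 Control here and in BBC3, where the unmodified cells were at 97.7 and 96.1 and the Control cells at 65.7 and 66.8. By the strongest peak CDKN1A, TP53INP1 and MDM2 went the same way, while MDM4 and SESN1 overlapped. PPM1D went the other way (78.1 and 77.4 in WT, 80.3 and 88.8 in Control). The share of all genes with either pattern is not given here. K562 WT libraries were also the deepest of that line, at 25.6 and 24.9 M effective reads against 12.6 to 19.5 M. The part of depth in this was not tested.

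MDM2 and CDKN1A, the feedback ligase and the arrest gene, had their lowest mean ranks by strongest peak in HepG2. HepG2 is the line with functional p53. For MDM2 this rested on 1 of the 2 libraries and on the 3′ UTR site. At the MDM2 coding site HepG2 was at 67.2 and 89.96, inside the NB4 Control range of 58.8 to 92.6. K562 and NB4 RBFOX2 KD libraries were higher at that site, from 92.5 to 96.97. The strongest MDM2 peak was at percentile 73.5 in HepG2 WT 1 and 91.3 in HepG2 WT 2. In K562 it was at 99.7 and 99.9 (WT), 99.6 and 99.1 (Control), and 99.7 and 99.4 (KD). NB4 Control libraries were at 85.5, 93.0 and 94.1 and KD libraries at 99.1, 98.1 and 97.5, so that HepG2 WT 2 overlapped the NB4 range. The mean was 82.4 ± 12.6 (SD, n = 2) in HepG2 and 97.1 ± 4.29 (n = 12) in the leukaemia libraries, a difference of -14.6 points (exact permutation test over libraries, two-sided, p = 0.022, Benjamini-Hochberg adjusted over 12628 genes 0.0846). Without HepG2 WT 1 the difference was -5.70, and HepG2 WT 2 was above the NB4 Control mean of 90.9.

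CDKN1A had 1 site in most libraries, in coding exon 2. HepG2 WT 1 had no peak and HepG2 WT 2 one at percentile 15.6. K562 WT libraries were at 74.4 and 71.2, Control at 37.7 and 20.1, and KD at 50.7 and 26.7. By its strongest peak the gene was at 60.6, 63.5 and 44.4 in NB4 Control and 2.67, 28.1 and 45.5 in NB4 RBFOX2 KD. HepG2 was thus at or near the bottom, with NB4 RBFOX2 KD 1 between the 2 HepG2 values. The difference was -36.0 points, 7.81 ± 11.1 (SD, n = 2) against 43.8 ± 21.8 (n = 12), which failed the correction (exact permutation test p = 0.033, adjusted 0.114). A second site, in intron 1 at 99 bases from the start, was listed in 5 of 6 NB4 libraries and nowhere else, at percentiles of 0.459 to 45.5.

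Folds lower in HepG2 without overlap were found for 27.1% of all genes. For MDM2 and CDKN1A the low HepG2 fold went with a high local background, the mean read count the peak caller set around the summit. At the strongest MDM2 peak it was 5.92 and 6.62 times the lowest, genome-wide background of the same library in HepG2, and 1.00 to 1.73 times in the 12 leukaemia libraries. The groups did not overlap (log2 difference 2.43, exact permutation test p = 0.011, the smallest 91 arrangements can give, adjusted over 5082 genes with a peak in all libraries 0.132). Of these 5082 genes, 6.83% did not overlap with HepG2 higher and 2.87% with HepG2 lower, no gene passed an adjusted p of 0.05 by this test (715 had an unadjusted p under 0.05), and MDM2 was number 7 by size of difference. This comparison was added after the values had been seen. For CDKN1A the ratio was 4.51 in HepG2 WT 2 and 1.00 in the 11 leukaemia libraries whose strongest peak was at the same exon 2 site. In NB4 RBFOX2 KD 3 the strongest peak was the intron 1 site, with a ratio of 1.44. At PPM1D and SESN1 it was 1.00 in all 14 libraries. The SESN1 fold was still lower in HepG2, at 5.56 and 5.85 against 6.30 to 20.9 in the leukaemia libraries. At MDM4 the ratio was 2.74 and 3.21 in HepG2 and 2.79 to 6.11 in the leukaemia libraries. At BBC3 it was 2.05 and 1.00 in HepG2 and 1.00 to 1.75 in the leukaemia libraries. At the MDM2 coding site the background was 111 and 108 reads in HepG2, and 20.6 and 28.0 reads in NB4 Control 1 and 2. In those NB4 libraries it was 7.06 and 8.35 reads at the 3′ UTR site.

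The height of the peaks themselves differed less. The MDM2 summit stood at 9.24 and 14.2 RPM in HepG2, 10.6 to 14.3 in NB4 and 19.1 to 39.8 in K562, while the fold was 2.64 and 3.64, 14.3 to 22.05 and 25.8 to 44.04 in the same order. CDKN1A stood at 5.18 RPM in HepG2 WT 2, inside the leukaemia range of 1.88 to 6.33 at that site, with a fold of 1.94 against 3.03 to 10.2. The recovered pileups came out whole for 15.65% and 14.16% of peaks in HepG2, against 100% in most leukaemia libraries. The HepG2 RPM values and local backgrounds, solved together, therefore rest on a less certain recovery. Whether the local background was drawn from input or from IP reads is not given in the sources used here. From the peak lists alone, more RNA per cell at these loci and less enrichment by the antibody cannot be told apart.

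**Figure D2:**
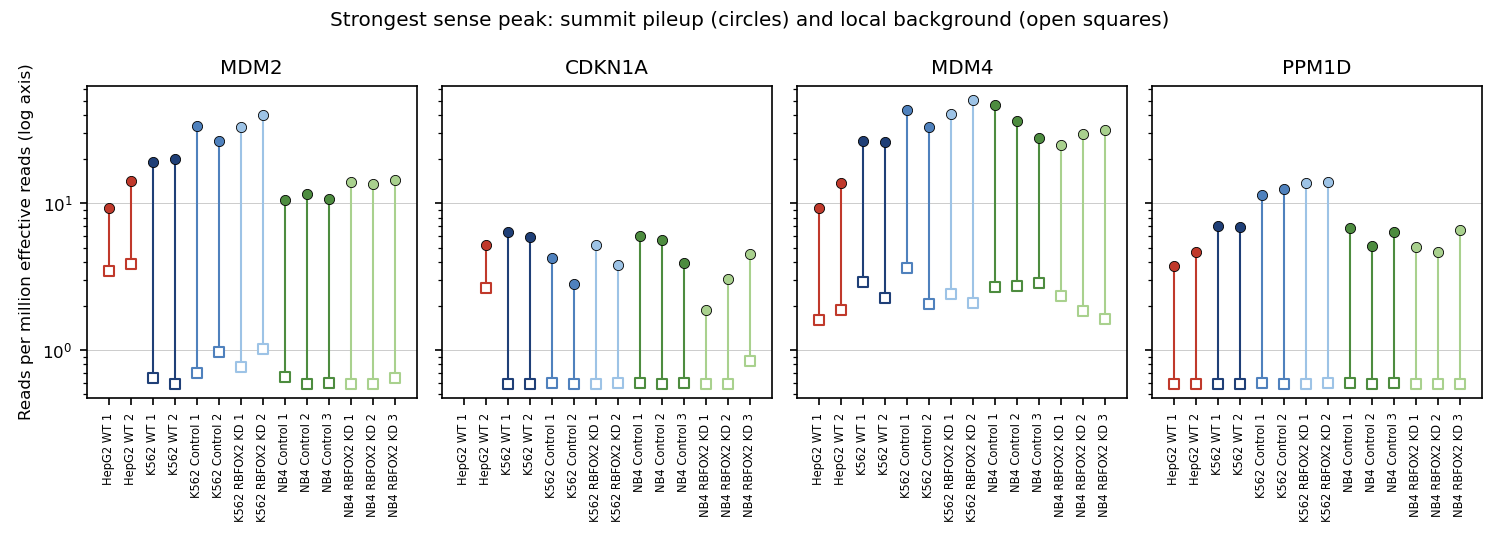
Summit pileup (circles) and local background (open squares) of the strongest sense peak, in RPM on a log axis, for MDM2, CDKN1A, MDM4 and PPM1D in each library that listed a peak; the line between them spans the fold. The HepG2 squares of MDM2 stand at 3.48 and 3.89 against 0.588 to 1.02 in the leukaemia libraries, while the PPM1D squares lie on 1 level.

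HepG2 also had start-proximal peaks that the other lines lacked. MDM2 had a region upstream of its annotated start (chr12:68807735-68807920, summit 304 bases upstream) in both HepG2 libraries, at percentiles 32.6 and 27.5 and folds of 3.03 and 2.84. PPM1D had one at chr17:60599856-60600059, with a median summit 232 bases upstream, at percentiles 34.9 and 42.1 and folds of 3.71 and 4.22. Neither was listed in any of the 12 leukaemia libraries. These were 2 of 19 recurrent sense regions, and 5.93% of all recurrent regions had this pattern. No other gene on the same strand is annotated over either summit.
MDM2 upstream, chr12:68807823-68807923, plus strand: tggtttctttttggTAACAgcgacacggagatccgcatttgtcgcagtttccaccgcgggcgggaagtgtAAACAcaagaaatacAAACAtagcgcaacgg
PPM1D upstream, chr17:60599875-60599975, plus strand: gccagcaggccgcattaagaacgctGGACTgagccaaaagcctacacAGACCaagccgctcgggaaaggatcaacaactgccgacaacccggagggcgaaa
The PPM1D window holds GGACT, and the A of its nearest DRACH is 1 base from the summit. In the MDM2 window the nearest is 22 bases away. MDM2 had 3 and 4 sense peaks in the HepG2 libraries and 2 in 11 of the 12 others, with 3 in NB4 Control 1. By number of peaks the gene was thus higher in HepG2 (difference 1.42, exact permutation test p = 0.022, adjusted 0.146), and by percentile lower. The count includes the upstream peak above, so it adds nothing separate to it. HepG2 WT 2 also had an intron 6 peak that no other library listed. The share of all genes with more peaks in HepG2 is not given here.

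PPM1D and BBC3 did not separate HepG2 from the leukaemia lines, while SESN1 in HepG2 lay below K562 and above NB4 without overlap. The coding site of PPM1D was at 78.8 and 82.5 in HepG2, within the range of 59.0 to 88.8 in the others, and the mean difference was 5.35 points (exact permutation test p = 0.495). BBC3 was at 69.5 and 93.9 in HepG2 against 65.7 to 97.7 (difference -2.01, p = 0.857 in the same exact test). SESN1 was at 71.5 and 67.3 in HepG2, between the 2 leukaemia lines, with 78.0 to 89.6 in K562 and 52.6 to 61.7 in NB4. Its difference from the leukaemia libraries was -1.21 (exact test p = 0.846), which pools lines on opposite sides of HepG2. Against NB4 alone HepG2 was higher by 12.4 points (exact test p = 0.0357, adjusted 0.0917). This is the smallest p that 2 against 6 libraries can give. The share of all genes apart in this way is not given here. PPM1D had a 5′ UTR region (chr17:60600311-60600486) in 9 libraries, among them all 6 of K562.

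TP53INP1 had sense peaks only in K562 WT. The coding exon 4 region was at percentiles 29.5 and 14.7 there, with summits of 2.81 and 2.29 RPM, and no library of any other group listed it. K562 Control and KD libraries, which lacked it, had fewer effective reads than K562 WT, and the part of depth in this was not tested. On the opposite strand, peaks upstream of TP53INP1 were at 66.4 and 67.8 in K562 WT and 13.9 in HepG2 WT 2, inside the annotated gene NDUFAF6. The antisense peak upstream of SESN1, inside CEP57L1, was listed in 8 libraries, among them all 6 of K562. An antisense peak in intron 3 of BBC3 was in both K562 WT and all 6 NB4 libraries, reaching percentile 74.9, where no other gene is annotated on that strand.

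**Figure D3:**
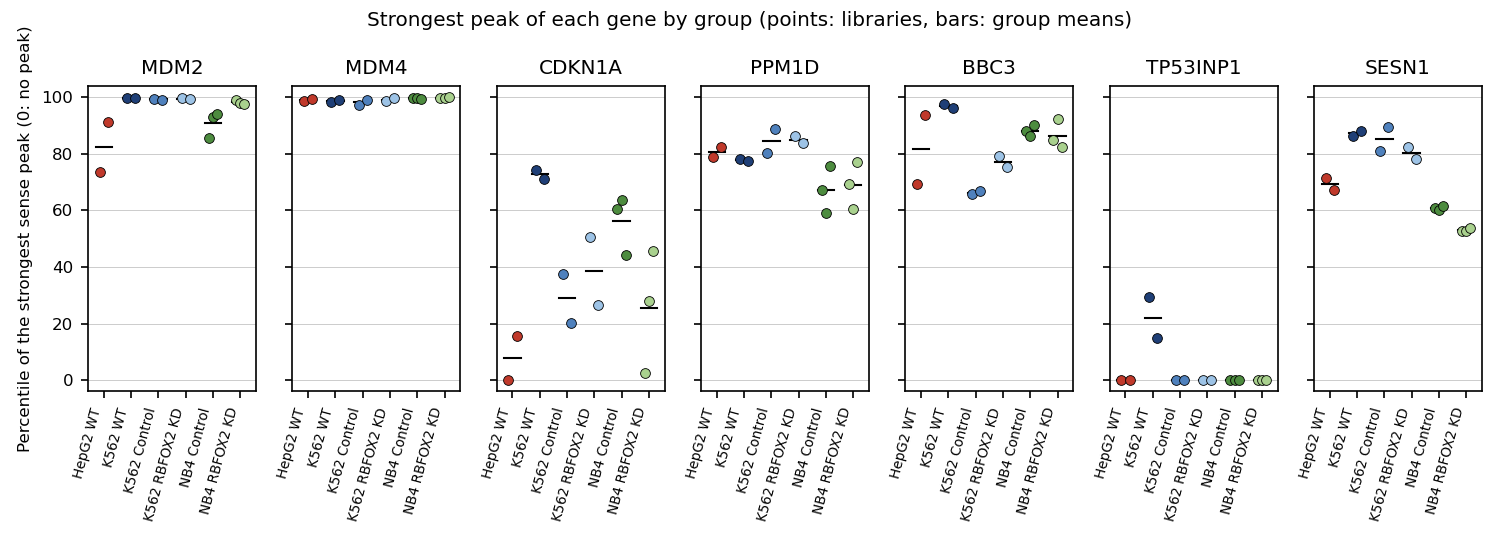
Percentile of the strongest sense peak of each gene (0 where no peak was listed) in the 14 libraries by group, with points for libraries and bars for group means. The HepG2 points of CDKN1A lie at 0 and 15.6 and those of MDM2 at 73.5 and 91.3, while the MDM4 points of all groups lie at 97.4 or above.

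None of the 7 genes passed an adjusted p of 0.05 between HepG2 and the leukaemia libraries by the exact permutation test, in either direction, and 2 (MDM2 and CDKN1A, both lower) had an unadjusted p under 0.05. Over all genes, 8.03% were called higher and 14.8% lower in HepG2, and 30.7% had an unadjusted p under 0.05. The median difference was -2.01 points over the 7 genes and -7.24 over all 12628. With summit RPM in place of percentiles, a measure added after the data were seen, MDM4 was called lower in HepG2 (adjusted p = 0.0416 by the exact permutation test), as were 20.7% of all genes (5.67% were called higher).

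Other p53 genes were taken from lists of 25 targets and 17 regulators. Of the 23 targets with a sense peak in any library, 3 were called higher and 4 lower in HepG2 and 16 were not called. Over all genes 8.03% were called higher and 14.8% lower, and the counts of targets are near these shares. The median difference was -9.66 points, against -7.24 over all genes. PLK2, a polo-like kinase (31.0 and 83.4 in HepG2), PHLDA3, an inhibitor of AKT (22.3 and 31.9), and SPATA18, a regulator of mitochondrial quality (10.4 and 21.1), had peaks in both HepG2 libraries and in none of the others. The genes called lower were PMAIP1, which encodes the BH3 protein NOXA, APAF1, the apoptosome scaffold, TNFRSF10B, a TRAIL death receptor, and AEN, an apoptosis-linked nuclease. PMAIP1 had no peak in HepG2 and 60.4 to 79.4 in all 12 leukaemia libraries, the largest difference of the list (-69.7 points). APAF1 was at 0 and 5.64 in HepG2 and 28.1 to 89.1 in the others, and TNFRSF10B at 33.4 and 83.7 against 90.6 to 99.02. All 7 calls had the smallest p of the exact permutation test (p = 0.011, adjusted 0.0482).

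The median difference of the 13 regulators with a peak was -7.42 points. None was called higher in HepG2 (8.03% of all genes were) and 3 were called lower (14.8% of all genes were). They were CHEK1, the checkpoint kinase (no peak in HepG2, 8.67 to 71.1 in the others), EP300, an acetyltransferase (85.4 and 98.7 against 99.1 to 99.8), and TP53BP1, which binds damaged chromatin (91.2 and 86.3 in HepG2, 93.8 to 99.3 in the others), the last named after its values were seen. CCNG1 and RPS27L of the targets, and CDKN2A, RPL5, RPL11 and RCHY1 of the regulators, had no sense peak in any library. The pattern of CDKN1A over the 14 libraries was most like that of ATF5 (Pearson r = 0.933) and GORASP1 (r = 0.907) among 11098 genes, a description over libraries that share lines and depth.

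The RBFOX2 KD libraries were compared with Control within each line. No region of the 7 genes was lost or gained in every library of a line, as 2.35% of all recurrent regions were in K562 and 2.95% in NB4. MDM2 stood higher after KD in NB4, at 85.5, 93.0 and 94.1 in Control and 99.1, 98.1 and 97.5 in KD, with no overlap. Summit RPM values were 10.6, 11.5 and 10.8 in Control and 13.95, 13.5 and 14.3 in KD, also without overlap, as for 4.26% of all genes. These values are from the 3′ UTR site. At the coding site percentiles were 58.8, 77.7 and 92.6 in Control and 94.7, 97.0 and 94.1 in KD, without overlap. Summit RPM at the coding site was 9.84, 12.1 and 12.4 in Control and 12.8, 14.1 and 11.9 in KD, where the groups overlapped. NB4 KD lists were longer than NB4 Control lists (36777 to 39803 peaks against 29609 to 33497). In K562, MDM2 was at 99.6 and 99.1 in Control and 99.7 and 99.4 in KD, close to the upper end of the scale.

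The strongest SESN1 peak was lower after KD in NB4, at 61.0, 60.1 and 61.7 in Control and 52.6, 52.7 and 53.7 in KD. Its summit RPM values were 5.94, 5.16 and 4.92 in Control and 3.80, 4.08 and 4.22 in KD. The groups did not overlap by either measure, but 21% of all genes were lower in RPM without overlap, and these values join different summits. At the summits 298 to 419 bases from the start Control was at 61.0, 60.1 and 43.7 and KD at 52.6, 18.5 and 10.4, and at those 756 to 788 bases from it Control was at 34.96 and 61.7, with no peak in Control 2, and KD at 48.9, 52.7 and 53.7. Within either summit the groups overlapped. In K562 it was at 80.9 and 89.6 in Control and 82.6 and 78.0 in KD, where the groups overlapped. Genes that did not overlap within NB4 made up 12.1% of all genes for higher and 5.19% for lower after KD, so 1 of 7 genes in each direction is near that background.

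**Figure D4:**
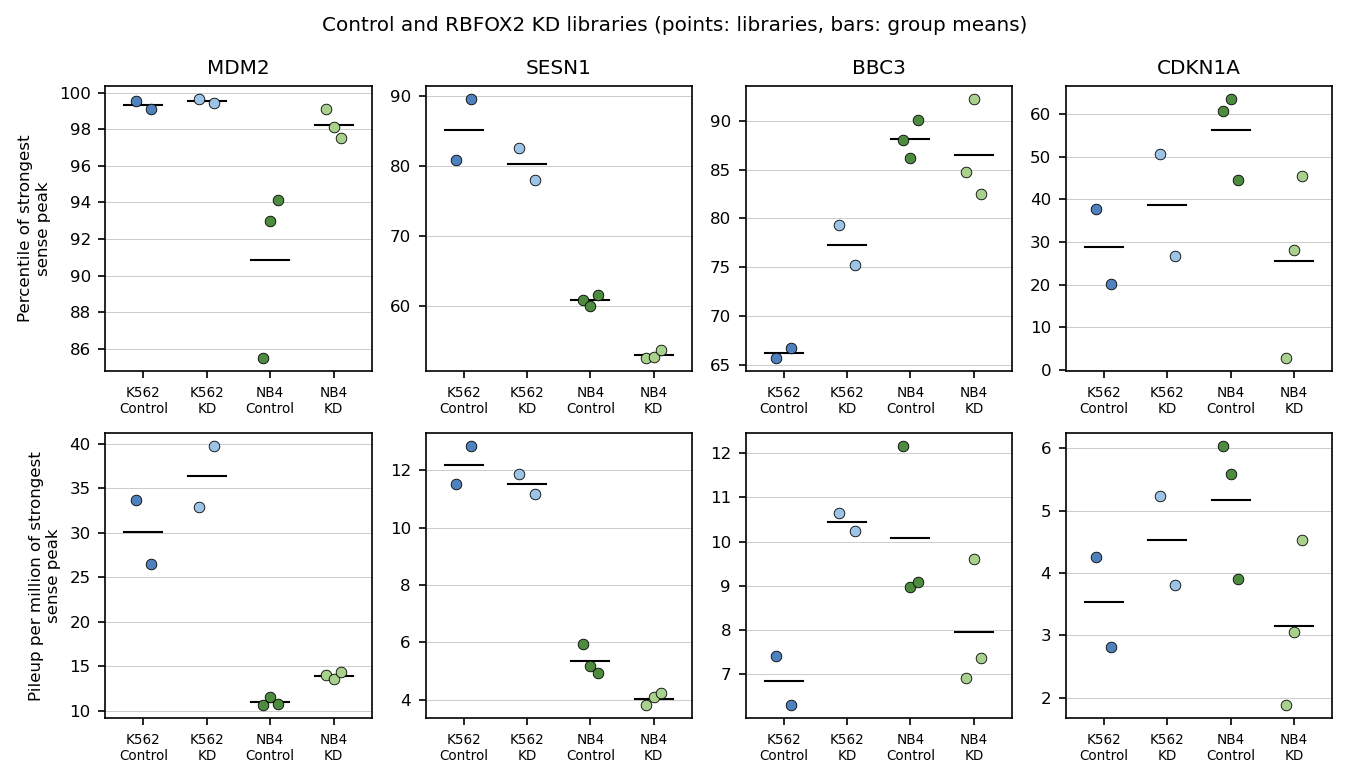
Percentile (top) and summit pileup in RPM (bottom) of the strongest sense peak of MDM2, SESN1, BBC3 and CDKN1A in Control and RBFOX2 KD libraries of K562 and NB4, with points for libraries and bars for group means; vertical axes do not start at 0. The NB4 Control and KD points of MDM2 and SESN1 are apart in both measures, in opposite directions; those of SESN1 join 2 summits.

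BBC3 was higher after KD in K562, at 65.7 and 66.8 in Control and 79.3 and 75.2 in KD, without overlap, as were 8.47% of all genes (12.6% were lower). In NB4 it was at 88.0, 86.2 and 90.1 in Control and 84.7, 92.2 and 82.5 in KD. For CDKN1A the K562 mean was 28.9 ± 12.4 (SD, n = 2) without and 38.7 ± 17.01 (n = 2) with the knockdown. The NB4 mean was 56.2 ± 10.3 (SD, n = 3) without and 25.4 ± 21.5 (n = 3) with it. By the strongest peak the groups overlapped in both lines, but the NB4 RBFOX2 KD 3 value (45.5) was from the intron 1 site. At the exon 2 site alone, NB4 Control was at 60.6, 63.5 and 44.4 and KD at 2.67, 28.1 and 26.3, without overlap. Summit RPM there was 6.04, 5.58 and 3.90 in Control and 1.88, 3.06 and 3.03 in KD, also without overlap. By the strongest peak, 5.19% of all genes were lower without overlap in percentile and 21% in RPM. These site values were read after the data were seen.

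Over both lines together, the mean KD minus Control difference was 3.79 points for MDM2 and -6.43 points for SESN1, the latter over both summits, each with 5 of 5 KD libraries on that side of the Control mean. Both had p = 0.0333 in the exact permutation test within lines, which failed the correction over all genes (adjusted 0.739). This was the smallest adjusted p of any gene, 0 genes were called, and 491 of 12628 (3.89%) had an unadjusted p under 0.05. Within a line the exact test cannot go below 0.333 in K562 or 0.1 in NB4. A difference of the change between the lines did not reach the threshold of 0.05 for any of the 7 genes (smallest p = 0.0833, MDM2, exact permutation of labels within lines). Of the targets 2 and of the regulators 1 had an unadjusted p under 0.05, and none passed the correction. These were SESN2 and TRIAP1, both lower after KD, and HIPK2, higher, named after their values were seen.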

How the data were processed

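MeRIP-seq of caRNA gave 14 IP peak lists from 3 cell lines; the 14 input samples were not analysed here. Per the submitters' processing notes and the study's methods, the authors trimmed reads with Trimmomatic 0.39, aligned them to hg38 with HISAT2 2.1.0 and GENCODE release 29, split strands with SAMtools 1.9 and called peaks per library and strand with MACS2 (extension 150, up to 5 duplicates kept, genome size 1.3e+08, q under 0.01), without pooling replicates. The deposited lists hold for each peak a score (about 10 times the next value, not used further), the fold of pileup over local background as a ratio, and the -log10 p and -log10 q values that the authors' peak caller computed. No read counts were used, and a list holds only what passed its threshold.

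Genes were placed with GENCODE release 44 on the same build (0 of 496678 peaks past a chromosome end), and 92.1% of summits in exons lay on the strand of the gene. Peaks were ranked by -log10 q within a list. Pileup and local background were solved from fold and p. Effective reads came from the lowest background of each strand, with the genome size and extension given above. Recovered pileups were whole (within 0.05) for 100% of peaks in 11 libraries. In HepG2 WT 1 and 2 and NB4 Control 3 the share was 11.11% to 15.65%. Groups were compared by two-sided exact permutation tests over libraries, with Benjamini-Hochberg adjustment over 12628 genes. HepG2 was set against the leukaemia libraries in 91 arrangements (smallest exact permutation p = 0.011, adjusted 0.0482), and KD against Control within lines in 120 (smallest exact p = 0.0167). The test code was checked on simulated data. The study's methods name no replicate block, so libraries were not paired by replicate number in these tests. With 2 or 3 libraries per group, correlations of deviations cannot show whether they were processed in pairs. Between 4.05% and 9.00% of summits were identical in 2 replicates of a group.

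The members, the lists and the tests were chosen with earlier results of these data known. Named genes were the 7 members, up to 6 list genes in each direction whose HepG2 values did not overlap the others, and the 2 genes most like a member that had a peak in 3 to 13 libraries; a further gene named by this rule is not reported here. Alternatives changed the measure, threshold, list size, window, strand and libraries. Python 3.11.15, numpy 2.4.6, pandas 2.3.3, scipy 1.17.1, numba 0.67.0, pysam 0.24.0 and matplotlib 3.10.9 were used.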

Additional observations from a re-analysis of the deposited data

How the results depend on the processing

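Between HepG2 and the leukaemia libraries, the count of member genes called was 0 under every alternative except summit RPM, added after the data were seen, where 1 was called lower (MDM4, difference -23.3 RPM, adjusted p = 0.0416, exact permutation test; 20.7% of all genes were called lower this way). CDKN1A kept its direction under all alternatives, at -19.9 points with lists of equal size. Differences of other genes turned under some. These were -6.11 for PPM1D by fold, -4.17 for PPM1D by RPM, 1.42 for MDM2 by number of peaks, and 645, 15.9 and 143 for MDM2, BBC3 and SESN1 by covered bases. With lists of equal size they were 0.22 for MDM4, 7.40 for BBC3 and 12.9 for SESN1. Against K562 WT alone MDM4 was at 0.30; against all 6 K562 libraries MDM4 was at 0.30, PPM1D at -1.79 and BBC3 at 1.57; and against the 6 NB4 libraries SESN1 was at 12.4. Leaving out 1 library at a time gave -23.6 to -5.70 for MDM2, with -5.70 without HepG2 WT 1, -43.8 to -28.2 for CDKN1A, -0.58 to 0.086 for MDM4, -14.2 to 10.2 for BBC3 and -3.34 to 0.91 for SESN1. Without a HepG2 library the smallest possible p is 0.0769. The local background difference of BBC3 ranged from -0.16 to 0.88 and that of MDM2 from 2.35 to 2.51. After KD, differences turned for MDM2 (-0.17), PPM1D (-0.25) and SESN1 (0.17) by number of peaks, PPM1D with lists of equal size (-2.69) and MDM4 by RPM (-0.57). Leaving out 1 library gave -0.98 to 3.27 for PPM1D, 2.45 to 4.61 for MDM2 and -8.61 to -4.24 for SESN1. With the replicate block (32 arrangements), where deviations of same-numbered libraries correlated at -0.188 to -0.068, MDM2 was at 3.79 (p = 0.0625) and SESN1 at -6.43 (p = 0.125, exact sign flips), and 0 members were called. The counts of 7, 2 and 2 regions were kept under the 3 alternatives tried. The cause of these changes was not tested.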
